A study of Homo sapiens with 15 samples.

Results

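The 2 control states of VCaP cells in this series, cultures given the vehicle DMSO and cultures given a non-targeting siRNA, were compared across all detected genes on 6 of 15 arrays. The arrays were chosen by their treatment label, as the 3 DMSO arrays and the 3 non-targeting siRNA arrays of the deposited non-normalized table, and 12744 genes of a 47322-probe array were tested. VCaP is an established human prostate cancer line that responds to androgen and carries the TMPRSS2-ERG fusion. DMSO is the solvent used to carry small molecules into culture medium, and a non-targeting siRNA is a short duplex RNA meant to match no transcript, delivered by transfection. The other 9 arrays came from cells given ERG siRNA 1 or ERG siRNA 2 for 72 h, or WP1130, a small-molecule deubiquitinase inhibitor, for 24 h. All cultures were labelled as grown in DMEM with 10% FBS, and total RNA was column-purified and labelled as biotin cRNA. Neither the labels nor the file headers state the times in culture of both control groups, the dose of DMSO or the transfection reagent. The DMSO and the non-targeting siRNA cultures thus differed in vehicle, in transfection and possibly in time, and these cannot be told apart. Nothing in the labels says whether the 3 arrays of a group stand for separate cultures, so the spread behind each p-value is that between arrays and may be technical.

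In dividing cells, a large set of genes for chromosome condensation, spindle assembly, chromosome segregation and cytokinesis is transcribed mainly in the G2 and M phases, while genes for DNA replication and nucleotide synthesis are transcribed mainly from late G1 into S phase. A bulk RNA sample therefore carries more of these transcripts where more of its cells are dividing. Transfected duplex RNA is taken up by Argonaute proteins, and in some cells it is also sensed by the interferon system. VCaP cells express a luminal prostate programme of keratins, secretory proteins and androgen-induced genes. In bulk samples such as these, fewer cells of a kind and less RNA per cell cannot be told apart.

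The 6 control arrays were alike in quality. The non-targeting arrays had a mean raw intensity of 427 ± 28.3 (SD, n = 3) and the DMSO arrays of 417 ± 19.4, and 18460 to 19406 and 19246 to 20356 probes were detected. Arrays of 1 group correlated at 0.995 to 0.997, and DMSO arrays correlated with non-targeting arrays at 0.986 to 0.989 across genes. Of 11 luminal prostate markers on the array, 10 were detected on all 6 control arrays, among them KLK2, HOXB13, FOXA1, KRT8 and KRT18, and the probe of KLK3 was detected on none of the 6. Whether that single KLK3 probe reads the transcript of these cells was not tested, so its absence is no statement on KLK3 expression. The basal keratins KRT5, KRT14 and KRT15 and the leukocyte marker PTPRC were detected on none of the 6. The first principal component of all 15 arrays held 69.4% of the variance. The second component, 11.02%, placed the DMSO arrays at -23.9 to -21.8, the non-targeting arrays at -2.89 to -1.69 and the ERG siRNA arrays at 9.37 to 14.6. The third, 6.3%, placed the non-targeting arrays at 16.95 to 20.1 and the other 12 arrays at -8.62 to 0.44.

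Of the 12744 genes, 1671 (13.1%) were higher and 1481 (11.6%) lower in the DMSO cultures, in total 24.7% (limma, Benjamini-Hochberg adjusted p under 0.05). With median scaling in place of quantile normalization, 1668 were higher and 865 lower. Most differences were small. The median size was 0.15 on the log2 scale over all genes and 0.40 over the called genes, against a median SE of 0.10. At least 2-fold differences numbered 42 higher and 87 lower genes, and 105 genes (0.824%) passed a test of a difference beyond 1.5-fold. The 3 DMSO arrays and the 3 non-targeting arrays did not overlap for 3100 of the called genes, 24.3% of all genes tested. The median difference of all genes was 0.02. All values below are normalised log2 intensities, or differences of their group means (DMSO minus non-targeting siRNA) ± SE, and "called" means past the adjusted p threshold.

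**Figure D1:**
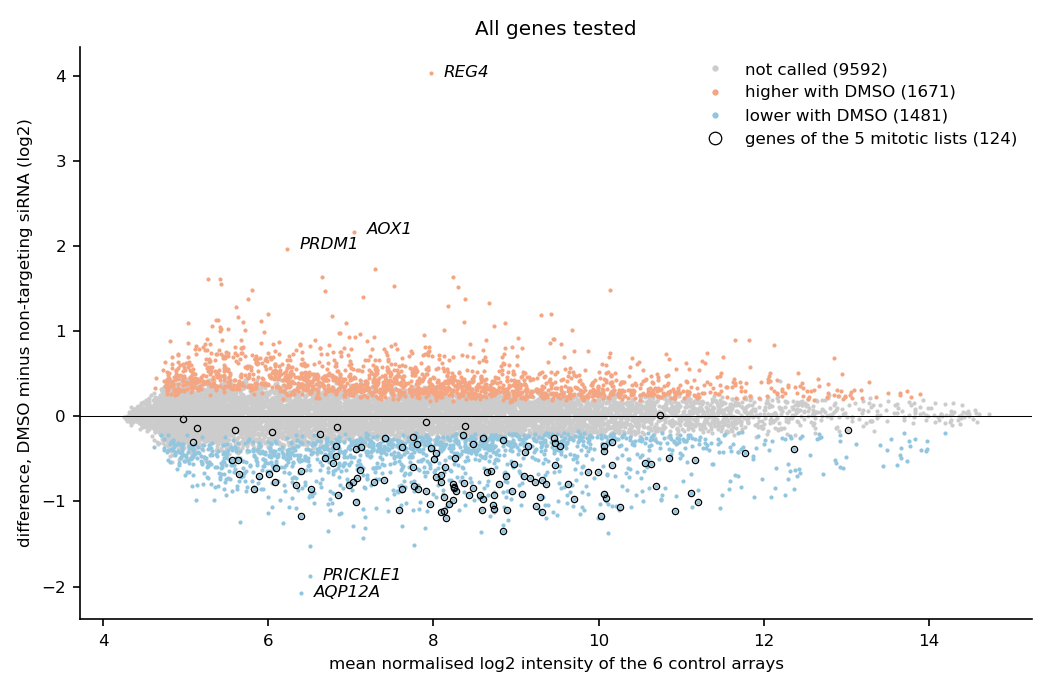
Difference between DMSO and non-targeting siRNA (log2, vertical axis) against the mean normalised log2 intensity of the 6 control arrays (horizontal axis), 1 point per gene tested. Red points are the 1671 genes called higher with DMSO, blue points the 1481 called lower, grey points the others, and black circles the 124 measured genes of the 5 mitotic lists, which lie almost all below 0.

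The largest rise with DMSO was that of REG4, a secreted C-type lectin of gut and neuroendocrine epithelia that is expressed in some prostate cancers. REG4 measured 5.74, 5.95 and 6.20 on the non-targeting arrays and 9.90, 10.04 and 10.03 on the DMSO arrays, raw means of 163 and 1220 intensity units. The groups lay far apart, and the difference was 4.03 ± 0.12, or 16.3-fold (adjusted p = 1.96e-11). With each ERG siRNA the probe was detected on 1 of 3 arrays, at group means of 4.84 and 4.90, and the WP1130 arrays averaged 10.62. AOX1, an aldehyde oxidase, measured 5.79, 6.05 and 6.04 against 8.02, 8.14 and 8.20, a rise of 2.16 ± 0.09. PRDM1, the transcriptional repressor BLIMP1, rose by 1.97 ± 0.16 at its brightest probe, from 5.04 to 5.47 on the non-targeting arrays to 7.17 to 7.25 on the DMSO arrays. A second PRDM1 probe differed by only 0.14, so the rise was not shared by both probes. PPFIA2, a liprin scaffold of presynaptic sites, rose by 1.73 ± 0.12 and the sodium bicarbonate cotransporter SLC4A4 by 1.64 ± 0.12.

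Of the cilium genes, BBS4 and CFAP69 were also among the 15 largest rises, as were genes of secretion. BBS4, a subunit of the BBSome that carries cargo to cilia, measured 7.45, 7.22 and 7.60 on the non-targeting arrays and 9.09, 9.06 and 9.03 on the DMSO arrays (1.64 ± 0.09). Only the non-targeting arrays were low for BBS4: the ERG siRNA groups averaged 9.20 and 9.21 and the WP1130 group 8.996. CFAP69, a protein of cilia and sperm flagella, rose by 1.52 ± 0.10 and stood at 9.44 and 9.61 with the ERG siRNAs, but was lower with WP1130 than with these siRNAs. The secretoglobin SCGB1D2 rose by 1.53 ± 0.10, and the protein disulfide isomerase AGR3 by 1.47 ± 0.18 at 1 probe and differed by -0.10 at another. FBLN2, a fibulin of the extracellular matrix, rose by 1.49 ± 0.09, with 1.62 at a second probe. CEMIP, a hyaluronan-binding protein, rose by 1.40 ± 0.10, and EAF2, an androgen-induced partner of the ELL elongation factor, by 1.48 ± 0.12. Probes of VSTM2A, SLC15A2 and BCAS1 were not detected on any non-targeting array and so gave only bounds. The peptide transporter SLC15A2 was at least 2.11-fold higher, the immunoglobulin-domain gene VSTM2A at least 2.34-fold (with a difference of 0.43 at a second probe) and BCAS1 at least 2.32-fold. A bound sets the DMSO mean against the higher of the dim probe's own value and the lowest detected value on each non-targeting array. The adjusted p of these 15 rises ran from 1.96e-11 for REG4 to 3.16e-05 for AGR3.

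The 3 genes whose pattern over the 15 arrays was most like that of REG4 were MYOF (Pearson r = 0.982), a membrane repair protein, FGF13 (0.981), an intracellular fibroblast growth factor homologue, and NPB (0.980), the neuropeptide B precursor. Their own rises were 1.13 ± 0.10, 0.65 ± 0.09 and 0.98 ± 0.10, and second probes of MYOF and NPB differed by 0.55 and 0.25. These correlations describe arrays that fall into 5 groups, so few of the 15 points are independent.

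**Figure D2:**
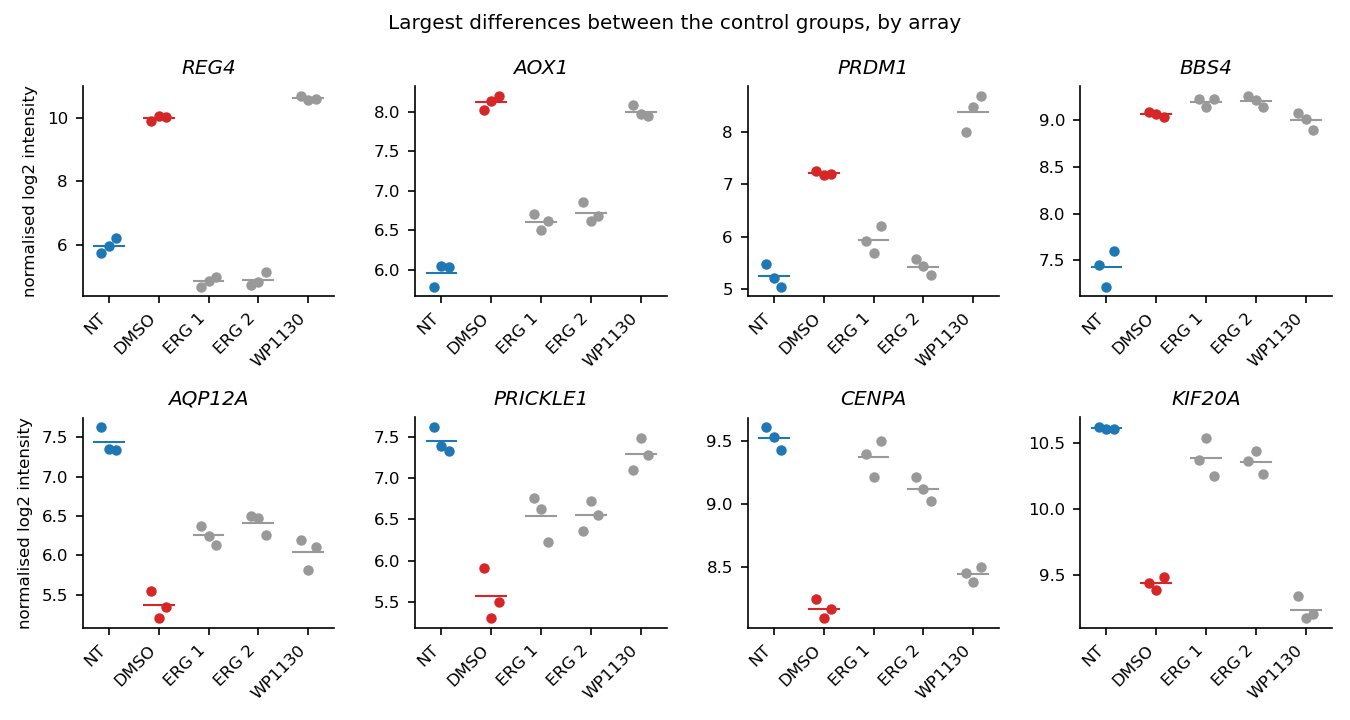
Normalised log2 intensity (vertical axis) on each array of the 5 groups (NT, non-targeting siRNA, in blue; DMSO in red; ERG siRNA 1, ERG siRNA 2 and WP1130 in grey), with a line at each group mean, for 8 genes. Each panel has its own vertical range, which does not start at 0. The NT and DMSO arrays do not overlap in any panel; BBS4 is low on the NT arrays only, and REG4 is high with DMSO and WP1130.

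The largest fall was that of AQP12A, an aquaporin, whose near-identical copy AQP12B its probe may also read, which was not tested. AQP12A measured 7.63, 7.35 and 7.34 on the non-targeting arrays and 5.54, 5.20 and 5.34 on the DMSO arrays, 4.22-fold lower (-2.08 ± 0.12, adjusted p = 6.27e-08). The ERG siRNA groups lay between them, at 6.25 and 6.41. PRICKLE1, a planar cell polarity protein, measured 7.62, 7.39 and 7.32 against 5.91, 5.30 and 5.49 (-1.88 ± 0.16). The actin-associated genes PDLIM3 and SVIL fell by 1.52 ± 0.11 and 1.31 ± 0.10, with -1.11 and -0.76 at their second probes. KHDRBS3, an RNA-binding splicing regulator, fell from 10.76, 10.77 and 10.88 to 9.46, 9.43 and 9.41, a difference of -1.38 ± 0.08 with -1.46 at a second probe. TMEM178A fell by 1.51 ± 0.07, the glutamate receptor subunit gene GRIA2 by 1.32 ± 0.13 and the beta tubulin gene TUBB2B by 1.29 ± 0.10. LRRC31 fell by 1.29 ± 0.10 and TNFAIP8L1 by 1.26 ± 0.10. TROAP, a spindle-associated protein that is in none of the gene lists, measured 9.28, 9.10 and 9.39 against 8.07, 7.83 and 7.82 (-1.35 ± 0.11). CENPA, the centromeric histone H3 variant, was also among the 15 largest falls and is described with the mitotic lists. Probes disagreed for 2 of the 15. SF1, a splicing factor, fell by 1.34 ± 0.14 at its brightest probe but differed by -0.36 and -0.03 at 2 others, and FKBP14 fell by 1.28 ± 0.14 and differed by 0.05 at another. The 3 genes most like AQP12A over the 15 arrays were POLA2 (r = 0.949), a subunit of DNA polymerase alpha, UGT2B15 (0.934) and ARGLU1 (0.934), which fell by 0.59 ± 0.06, 1.11 ± 0.09 and 0.50 ± 0.07.

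Genes of mitosis were lower with DMSO almost without exception. Over the 5 mitotic lists, 109 of 124 measured genes (87.9%) were called lower and 0 higher, against 11.6% of all genes called lower, and their median difference was -0.70. All 5 lists moved alike. Of the mitotic kinases and spindle checkpoint genes, 20 of 21 fell, with a median of -0.70. Of the mitotic cyclins, activators and their regulators, 20 of 24 fell (median -0.61). The counts were 30 of 31 for mitotic kinesins and spindle proteins (median -0.80), 27 of 32 for kinetochore, centromere and condensin genes (-0.76) and 13 of 17 for cytokinesis and nuclear envelope genes (-0.65). At an unadjusted p under 0.05 (limma), 113 were lower and 0 higher. The lower count lay between 95 and 112, with 0 higher, in the 12 other settings that kept these thresholds and all control arrays. Leaving out a chosen set of genes, described below, is not among the 12. With the stricter filter on dim probes 121 mitotic genes were measured, and with no filter 128. In the test beyond 1.5-fold, 24 passed.

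Among the kinases, PLK1, the polo-like kinase that drives mitotic entry, measured 7.23, 6.84 and 6.87 on the non-targeting arrays and 5.83, 5.60 and 5.99 on the DMSO arrays (-1.17 ± 0.14, adjusted p = 2.38e-05). AURKA, the centrosomal Aurora kinase, measured 10.74, 10.80 and 10.82 against 9.68, 9.74 and 9.77 (-1.06 ± 0.07), and a second probe gave -1.09. AURKB, the Aurora kinase of the chromosomal passenger complex, fell by 1.10 ± 0.11, and its partner BIRC5 (survivin) by 1.19 ± 0.08. In each of these genes, the highest DMSO array lay below the lowest non-targeting array. Of the activators of the anaphase-promoting complex and its substrates, CDC20 fell from 11.71, 11.75 and 11.68 to 10.68, 10.74 and 10.69. The E2 enzyme UBE2C fell by 1.12 ± 0.07, the cyclin-like F-box gene CCNF by 1.10 ± 0.11 and separase, ESPL1, by 1.0 ± 0.11.

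The kinesin KIF20A, which acts at the central spindle, measured 10.62, 10.60 and 10.61 on the non-targeting arrays and 9.44, 9.39 and 9.49 on the DMSO arrays (-1.17 ± 0.08, adjusted p = 1.45e-07). KIF14 and KIFC1, kinesins of cytokinesis and of spindle pole focusing, fell by 1.12 ± 0.08 and 1.12 ± 0.09. CENPA fell from 9.61, 9.53 and 9.42 to 8.25, 8.10 and 8.17, the largest fall of any mitotic list member (-1.35 ± 0.09), with -1.17 at a second probe. Its chaperone HJURP fell by 1.11 ± 0.11 and the kinetochore motor CENPE by 1.11 ± 0.10. The cytokinesis genes KIF23, CEP55 and RACGAP1 fell by 0.95 ± 0.09, 0.93 ± 0.08 and 0.92 ± 0.07.

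On the other arrays of the series, mitotic transcripts took levels between and around those of the controls. The mean level of the kinesin and spindle list, centred on its mean over the 15 arrays, was 0.35 to 0.42 with the non-targeting siRNA and -0.42 to -0.33 with DMSO. It was 0.23 to 0.29 with ERG siRNA 1, 0.12 to 0.18 with ERG siRNA 2 and -0.50 to -0.34 with WP1130. The transfected groups were thus all above 0 and the DMSO and WP1130 groups all below it.

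**Figure D3:**
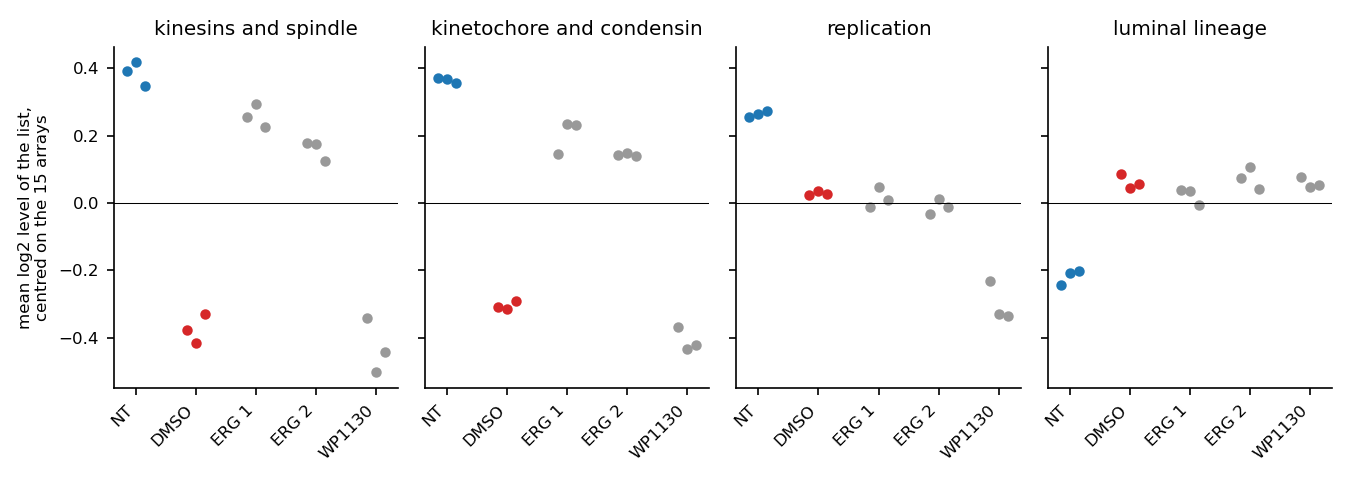
Mean normalised log2 level of 4 gene lists on each array, centred on the mean of the 15 arrays (vertical axis), for the 5 groups (NT, non-targeting siRNA, in blue; DMSO in red; other groups in grey). Both mitotic lists are high on all 9 transfected arrays and low with DMSO and WP1130. The replication list is highest, and the luminal list lowest, on the 3 NT arrays.

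Promoters of mitotic genes in human cells often hold the cell cycle genes homology region, TTTGAA, near a CCAAT box, and the first is known as a contact of the DREAM and MuvB complexes. Sequences of 250 bases before the annotated start were available for 104 of the 124 measured mitotic genes. TTTGAA, on either strand, occurred in 43 of the 91 such promoters of genes called lower (47.3%), in 8.74% of 10132 promoters of tested genes and in 13.6% of all 27305 promoters in the table. In genes called lower outside the mitotic lists it occurred in 10.8%, and in genes called higher in 7.26%. CCAAT, on either strand, occurred in 63.7% of the 91 promoters and in 35.7% of those of tested genes. The E2F motif, searched on either strand as TTTGGCG, as the second spelling TTTCCCG and as the further spelling TTTCGCG, occurred in 15.4% of the 91 and in 9.43% of the tested genes. Over all 104 measured mitotic genes with a sequence, called or not, TTTGAA occurred in 45 (43.3%), CCAAT in 62.5% and the E2F motif in 17.3%. The shares thus describe the mitotic lists as a whole and are not particular to the members that fell. Matches of TTTGAA and CCAAT can share at most 1 base. Promoters of the 4 mitotic list genes with the largest falls that hold TTTGAA and had a sequence are shown, because they let the counted letters be read in place. They are RefSeq sequences of build GRCh38.p14, read 5′ to 3′ along the gene and ending at the base before the start: CENPA at chr2:26785806-26786055 (plus strand), PLK1 at chr16:23678639-23678888 (plus strand), HJURP at chr2:233854536-233854785 (minus strand) and CCNF at chr16:2429197-2429446 (plus strand). Capitals mark the homology region and the CCAAT box on either strand.
CENPA: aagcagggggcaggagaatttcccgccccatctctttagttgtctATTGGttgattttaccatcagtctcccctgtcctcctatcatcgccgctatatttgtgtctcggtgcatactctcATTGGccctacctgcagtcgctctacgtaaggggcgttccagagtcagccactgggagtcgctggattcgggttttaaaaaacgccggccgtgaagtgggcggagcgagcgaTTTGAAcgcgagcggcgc
PLK1: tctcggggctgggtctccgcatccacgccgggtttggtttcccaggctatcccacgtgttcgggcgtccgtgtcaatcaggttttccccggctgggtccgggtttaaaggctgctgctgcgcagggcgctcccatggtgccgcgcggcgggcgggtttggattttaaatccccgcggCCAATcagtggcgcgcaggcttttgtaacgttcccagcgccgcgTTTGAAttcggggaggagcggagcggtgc
HJURP: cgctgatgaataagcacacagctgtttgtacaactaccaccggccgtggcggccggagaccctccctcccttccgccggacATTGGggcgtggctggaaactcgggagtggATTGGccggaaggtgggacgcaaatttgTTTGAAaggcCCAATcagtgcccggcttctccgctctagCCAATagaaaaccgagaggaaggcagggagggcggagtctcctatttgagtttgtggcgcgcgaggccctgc
CCNF: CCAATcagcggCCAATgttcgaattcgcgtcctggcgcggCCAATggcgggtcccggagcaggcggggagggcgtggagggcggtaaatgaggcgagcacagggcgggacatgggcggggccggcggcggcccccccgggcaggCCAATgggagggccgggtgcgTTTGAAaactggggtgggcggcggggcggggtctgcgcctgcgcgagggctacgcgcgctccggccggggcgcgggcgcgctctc
TTTGAA began 18 bases before the start of CENPA, 29 before PLK1, 85 before CCNF and 111 before HJURP. A match is a description of the letters, and the binding of a factor was not measured.

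Genes of S phase had smaller median differences than those of mitosis. Of the replication licensing and fork genes, 20 of 40 were lower and 2 higher (median -0.26), where 11.6% and 13.1% of all genes were. With median scaling 10 were lower, a setting in which the lower genes among all 12744 also went from 1481 to 865. TIMELESS, which stabilises stalled forks, measured 10.32, 10.24 and 10.37 against 9.68, 9.48 and 9.57 (-0.73 ± 0.09), and the licensing factor CDT1 fell by 0.63 ± 0.09. The primase subunit PRIM2 went the other way, at 0.86 ± 0.24 (adjusted p = 0.0155), a call that was lost (0.0582 to 0.0721) without non-targeting siRNA replicate 1 or 2 or DMSO replicate 2. Of E2F target and nucleotide synthesis genes, 16 of 30 were lower and 1 higher (median -0.27), 8 were lower with median scaling, and 10 without replicate 2 of either control group. Thymidylate synthase, TYMS, and thymidine kinase, TK1, each fell by 0.66 (SE 0.07 and 0.08), and E2F1 itself rose by 0.50 ± 0.12. The replication list held TTTGAA in 1 of 34 promoters (2.94%) and the E2F motif in 13 (38.2%). Of homologous recombination and repair genes, 13 of 21 were lower and 1 higher (median -0.33), and 8 were lower with median scaling. The repair polymerase POLQ fell by 0.95 ± 0.10, the glycosylase NEIL3 by 0.89 ± 0.15 and FANCI by 0.75 ± 0.10.

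Histone, arrest and p53 target genes did not fall together in that way. Histone genes were higher in 5 of 18 cases and lower in 1 (median 0.15): H2BC21 rose by 0.81 ± 0.09 and the linker histone H1-2 by 0.61 ± 0.10, while H4C3 fell by 0.40 ± 0.06. Array probes cannot always tell histone copies apart. Among 33 cell cycle inhibitors and growth arrest genes, 4 were higher and 7 lower (median -0.03), where 13.1% and 11.6% of all genes were. Without non-targeting siRNA replicate 3 or DMSO replicate 2, 2 were higher. With no scaling between arrays, 1 was higher and 4 lower. RBL2, the pocket protein p130 of resting cells, rose by 0.32 ± 0.08, while the call was lost with no scaling between arrays (adjusted p = 0.0795). CDKN1A (p21) measured 9.87, 9.82 and 9.72 against 10.19, 10.09 and 10.02 (0.29 ± 0.09, adjusted p = 0.0255), a difference of 0.01 at a second probe, and its call was lost (0.0544 to 0.097) without non-targeting siRNA replicate 2 or 3 or DMSO replicate 1 or 2, with no scaling between arrays (0.0839) and with the mean of its probes (0.122). GAS1, GAS2L3 and SESN3 fell by 0.73 ± 0.16, 0.81 ± 0.14 and 0.61 ± 0.09, with -0.16 at a second GAS1 probe. Of 18 p53 targets, 3 were higher and 4 lower (median 0.02), but 1 and 3 with no scaling between arrays. Among these GDF15 fell by 0.64 ± 0.09 and the death receptor FAS by 0.42 ± 0.08, and CDKN1A is counted again.

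**Figure D4:**
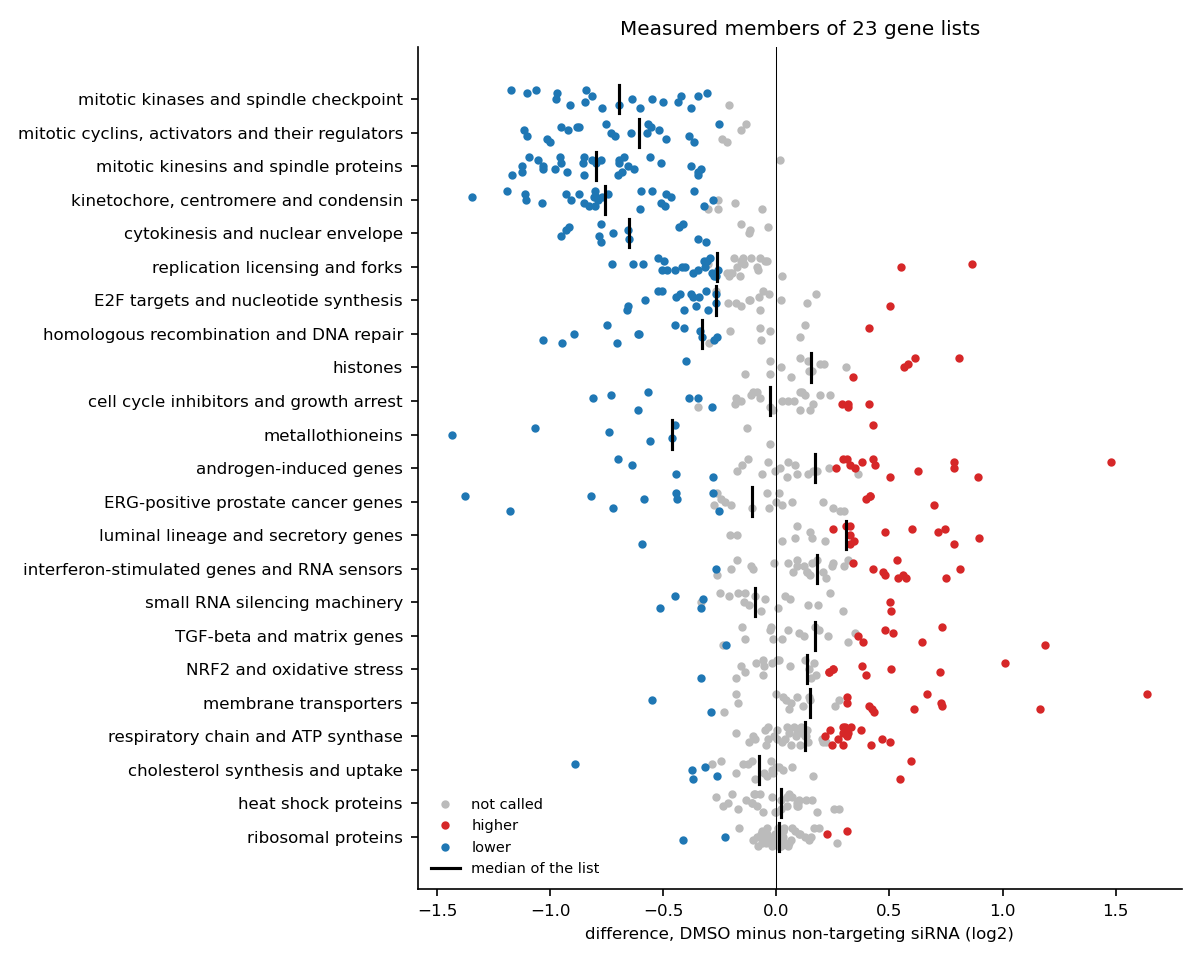
Difference between DMSO and non-targeting siRNA (log2, horizontal axis) of each measured member of the gene lists named on the vertical axis, in red where called higher, blue where called lower and grey where not called, with a black line at each list's median. The 5 mitotic lists at the top lie left of 0, with medians of -0.80 to -0.61, and the luminal list lies right of it, with a median of 0.31.

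ERG and the fusion partner TMPRSS2 did not pass the test. ERG measured 6.13, 6.04 and 5.84 with the non-targeting siRNA and 6.30, 6.25 and 6.35 with DMSO, a difference of 0.30 ± 0.18 (adjusted p = 0.274) on arrays that did not overlap. Fitted on the 2 control groups alone, the difference had an adjusted p of 0.0421, and with those 6 arrays normalized alone 0.0416. TMPRSS2 measured 11.12, 11.07 and 10.91 against 10.97, 10.83 and 10.82, with overlapping arrays (-0.15 ± 0.09, adjusted p = 0.225). KLK2, a kallikrein protease of the luminal cell and androgen target, measured 12.13, 12.19 and 12.17 against 12.72, 12.67 and 12.62. It was higher on every DMSO array and rose by 0.50 ± 0.09 (adjusted p = 4.94e-04).

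Androgen-induced genes leaned upward with DMSO. Of 34 measured, 14 were higher and 4 lower (median 0.17), where 13.1% and 11.6% of all genes were, and 9 were higher with no scaling between arrays. EAF2 rose most, SLC45A3 (prostein) rose from 11.16, 11.22 and 11.24 to 12.11, 12.06 and 12.12 (0.89 ± 0.08), and the protease ADAMTS1 rose by 0.79 ± 0.10. SPOCK1, MAF and the kinase CAMKK2 fell by 0.70 ± 0.07, 0.64 ± 0.12 and 0.45 ± 0.11. SLC45A3 averaged 12.54 and 12.72 with the ERG siRNAs and 11.12 with WP1130, so the DMSO level lay between. Of 13 genes that androgen lowers, 4 were lower, 1 was higher and the median was -0.02. The androgen-glucuronidating enzymes UGT2B15 and UGT2B17 fell by 1.11 ± 0.09 and 0.88 ± 0.07, and UGT2B10 by 0.88 ± 0.14. UGT2B15 measured 8.01, 7.98 and 8.02 against 6.81, 6.81 and 7.06. These UGT2B genes are near-identical copies, and whether a probe reads more than 1 of them was not tested. The opioid receptor OPRK1 fell by 0.90 ± 0.08. DDC, the decarboxylase of dopamine and serotonin synthesis, measured 7.47, 7.65 and 7.48 against 8.76, 8.91 and 8.81 and rose by 1.29 ± 0.09.

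Luminal lineage and secretory genes were higher in 12 of 21 cases and lower in 1 (median 0.31), where 13.1% and 11.6% of all genes were. This median was the highest of the 51 lists, and 7 genes were higher with no scaling between arrays. STEAP1, a membrane metalloreductase of prostate epithelium, measured 11.31, 11.38 and 11.41 against 12.28, 12.25 and 12.27 (0.90 ± 0.07, with 0.77 and 1.05 at 2 other probes). Keratin 19, KRT19, rose by 0.78 ± 0.09, the secretory isomerase AGR2 by 0.75 ± 0.08 and the epithelial transcription factor GRHL2 by 0.71 ± 0.08. The trefoil peptide TFF3 fell by 0.59 ± 0.10. The mean level of the list, centred on the 15 arrays, was -0.24 to -0.20 on the non-targeting arrays, 0.04 to 0.08 with DMSO and -0.01 to 0.11 on the 9 treated arrays. The non-targeting arrays were thus the low group. The summed normalised intensity of the 11 luminal markers on the array was 36090 to 39560 with DMSO and 33010 to 33260 with the non-targeting siRNA. Without KLK2 and ACP3, left out after their values were seen, the sum was 21140 to 22050 and 20440 to 21140, and TMPRSS2 and HOXB13 had lower means with DMSO. Among genes of ERG-positive prostate cancer, 4 of 29 were higher, near the share of all genes, and 9 lower (median -0.11). Without DMSO replicate 2, 5 were lower, without non-targeting siRNA replicate 1 or 2 6 were, and fitted on the 2 control groups alone 7 were higher and 10 lower. Besides KHDRBS3, the potassium channel KCNH8 fell by 1.18 ± 0.08, and the calcium channel ITPR3 by 0.72 ± 0.09. NCALD, a neuronal calcium sensor, rose by 0.70 ± 0.09. Of 17 ETS factors, 4 were higher and 2 lower (median 0.09), with ELF5 at 0.71 ± 0.08, SPDEF at 0.33 ± 0.07 (lost with no scaling between arrays, adjusted p = 0.0511) and ETV6 at -0.67 ± 0.11.

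Interferon-stimulated genes and RNA sensors, which sensed duplex RNA is known to raise in some cells, were more often higher than lower with DMSO. Of 33 measured, 10 were higher and 1 lower with DMSO (median 0.18), where 13.1% of all genes were higher and 11.6% lower. HERC6 and HERC5, HECT-domain ligases, measured 6.82 to 7.22 and 7.72 to 7.84 on the non-targeting arrays and 7.65 to 7.94 and 8.29 to 8.38 on the DMSO arrays. They rose by 0.75 ± 0.12 and 0.56 ± 0.08, DTX3L by 0.81 ± 0.16 and the exonuclease ISG20 by 0.57 ± 0.13. IRF7 was the 1 lower member, at -0.27 ± 0.08 (adjusted p = 0.0282), a call that was lost with median scaling (0.30) and without each control array but non-targeting siRNA replicate 1 (0.0539 to 0.127). Of 16 NF-kB and inflammatory genes, 1 was called, NFKB1 at -0.26 ± 0.07, a call lost when DMSO replicate 2 or non-targeting siRNA replicate 2 was left out and, at an adjusted p of 0.273, with median scaling. Of 23 genes of small RNA silencing, 2 were higher and 4 lower (median -0.09), and 2 were lower with median scaling and without DMSO replicate 3. AGO2, the slicing Argonaute, measured 10.74, 10.82 and 10.68 against 10.41, 10.23 and 10.25 (-0.45 ± 0.12, adjusted p = 0.0161). Its call was lost (0.0550 to 0.0589) without non-targeting siRNA replicate 2 or DMSO replicate 2 or 3. AGO4 was not detected on the non-targeting arrays and was at least 1.29-fold higher with DMSO.

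Of the signalling lists, between 17.6% (YAP and TEAD targets) and 34.8% (TGF-beta and matrix genes) of measured members were called. Of all genes 24.7% were, 13.1% higher and 11.6% lower. Of 23 TGF-beta and matrix genes, 7 were higher and 1 lower (median 0.17). The helix-loop-helix inhibitor ID1 rose by 1.19 ± 0.08 at 1 probe and differed by 0.18 at another, BAMBI, a pseudoreceptor of this family, rose by 0.73 ± 0.12, the inhibitory SMAD6 by 0.52 ± 0.12 and the laminin LAMC1 by 0.64 ± 0.08. Of 26 immediate early genes, 2 were higher and 5 lower (median -0.01). JUN measured 9.18, 9.13 and 9.25 against 8.58, 8.44 and 8.55 (-0.66 ± 0.07), KLF6 fell by 0.74 ± 0.09, and EGR1 rose by 0.38 ± 0.09. SPRY4, a feedback inhibitor of receptor kinases, was undetected with the non-targeting siRNA and at least 1.497-fold higher with DMSO, while its other probe gave 0.03. Of 17 YAP and TEAD targets, 2 were higher, MYOF and IGFBP3 (0.91 ± 0.08), and 1 lower. Of 19 Notch pathway genes, 2 were higher and 4 lower (median -0.17): the ligand JAG1 fell by 0.62 ± 0.12 and the target HES1 by 0.59 ± 0.13. Of 25 Wnt pathway genes, 5 were higher and 2 lower (median -0.03), with the receptors FZD6 at 0.67 ± 0.17 and FZD2 at -0.80 ± 0.11 and the R-spondin receptor LGR4 at 0.46 ± 0.08.

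Metallothioneins, small zinc-binding proteins, were lower with DMSO. Of the 9 measured members of that list, 6 fell and 1 rose (median -0.46), where 11.6% of all genes were lower and 13.1% higher. MT1H measured 7.93, 7.80 and 7.86 with the non-targeting siRNA and 6.37, 6.50 and 6.42 with DMSO (-1.43 ± 0.12, 2.70-fold lower). MT1F fell from 10.92, 10.88 and 10.96 to 9.89, 9.82 and 9.86 (-1.06 ± 0.07), MT1G by 0.74 ± 0.11 and MT2A by 0.56 ± 0.08. The DMSO arrays were the low group: the mean level of the list was -0.44 to -0.42 with DMSO and -0.12 to 0.41 on the other 12 arrays. MTF1, the zinc-sensing transcription factor of these genes, was the member that rose, by 0.43 ± 0.08. The MT1 genes are near-identical copies, and shared signal between their probes was not tested.

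Most genes of oxidative and energy metabolism were not called, and those called were mostly higher, where 13.1% of all genes were. Of 26 NRF2 and oxidative stress genes, 9 were higher and 1 lower (median 0.13). With median scaling 6 were higher, and 5 without non-targeting siRNA replicate 1 or DMSO replicate 2. The secreted glutathione peroxidase GPX3 measured 9.11, 9.08 and 9.30 against 10.21, 10.08 and 10.24 (1.01 ± 0.07), the glutathione transferase GSTA4 rose by 0.72 ± 0.09 and the quinone reductase NQO1 by 0.51 ± 0.10. Of 47 respiratory chain and ATP synthase genes, 16 were higher and 0 lower (median 0.13), but 10 with median scaling and 4 with no scaling between arrays. Without non-targeting siRNA replicate 2 the count was 8, and it was 10 with each DMSO replicate in turn left out. SDHC and COX6B1 rose by 0.50 ± 0.09 and 0.42 ± 0.07, with 0.18 at a second SDHC probe. Of 24 glycolysis and pentose phosphate genes, 6 were higher and 0 lower (median 0.12), among them aldolase C, ALDOC, at 0.46 ± 0.07, and with median scaling, as with no scaling, 3 were higher. Of 37 autophagy and lysosome genes, 10 were higher and 2 lower (median 0.16), and 5 were higher without non-targeting siRNA replicate 2. Of 27 proteasome subunits 6 were higher and 0 lower (median 0.15), but 1 with no scaling between arrays, 3 without non-targeting siRNA replicate 1 and 12 with quantile normalization without background correction.

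Lipid genes did not move 1 way. Of all genes, 13.1% were higher and 11.6% lower. Of 24 cholesterol synthesis and uptake genes, 2 were higher and 5 lower (median -0.07), while 3 were lower when DMSO replicate 2 or non-targeting siRNA replicate 3 was left out, 2 with median scaling and 1 with no scaling. HSD17B7, which acts on sterols and steroids, fell by 0.89 ± 0.13, INSIG1 by 0.37 ± 0.07 (lost with no scaling, adjusted p = 0.0501), and SC5D rose by 0.55 ± 0.09. Of 28 fatty acid and lipid storage genes, 3 were higher and 3 lower (median -0.03), with the mitochondrial carnitine transferase CPT1A at 0.75 ± 0.09 (0.28 at a second probe). SREBF1, a regulator of lipid synthesis, differed by -0.41 ± 0.11, a call lost when DMSO replicate 2 or non-targeting siRNA replicate 3 was left out and, at an adjusted p of 0.0719, with median scaling. Of 24 hypoxia genes, 3 were higher and 2 lower (median 0.02), and these counts and those of the fatty acid list were near the shares of all genes. Of 38 ATF4 and amino acid response genes 3 were higher and 9 lower (median -0.06), 31.6% called against 24.7% of all genes. Of the ATF4 list, 2 were lower with median scaling, 4 without replicate 2 of either group and 5 without replicate 3 of either. Of 33 heat shock proteins 0 were called by limma (median 0.02), where 24.7% of all genes were, and at an unadjusted p under 0.05 3 were higher and 4 lower. Of 26 endoplasmic reticulum chaperones 2 were higher and 0 lower, and of 49 ribosomal proteins 2 were higher and 2 lower (medians 0.02 and 0.01).

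Membrane transporters were higher in 11 of 27 cases and lower in 2 (median 0.15), where 13.1% and 11.6% of all genes were. Besides SLC4A4, the glucose transporter SLC2A12 measured 5.07, 5.12 and 4.96 against 6.11, 6.26 and 6.29 (1.17 ± 0.09). Neuroendocrine and neuronal genes were higher in 9 of 23 cases and lower in 2 (median 0.20), but 5 and 0 without DMSO replicate 2, and 8 and 0 with median scaling. The granin CHGB rose by 0.52 ± 0.07. Of 35 cilium and centriole genes, 6 were higher and 3 lower (median 0.08), near the shares of all genes. BBS4 and CFAP69 had the largest rises of the list. Without DMSO replicate 3, 3 were higher. Of 28 cell junction genes, 5 were higher and 2 lower (median 0.11), and NECTIN3, an adhesion receptor, fell by 0.68 ± 0.08. Of 33 chromatin repressors and methyltransferases, 1 was higher and 8 lower (median -0.10), but 4 were lower with median scaling and 3 with no scaling. Called members included the methyltransferases DNMT3A at -0.58 ± 0.12 and EZH2 at -0.44 ± 0.12, the latter lost (0.0627 to 0.0761) without non-targeting siRNA replicate 2 or DMSO replicate 2. Drug and steroid metabolism genes split, 6 of 29 higher and 6 lower (median 0.03), with 2 higher under no scaling between arrays. Calls were made for apoptosis regulators (3 of 31 higher, 3 lower), deubiquitinases (2 and 2 of 36), splicing factors (2 and 6 of 39) and ribosome biogenesis genes (3 and 5 of 39). These were 19.4%, 11.1%, 20.5% and 20.5% of the lists in that order, where 24.7% of all genes were called. With median scaling 1 splicing factor and 2 ribosome biogenesis genes were lower, and without DMSO replicate 2, 2 genes of each of these 2 lists were lower. Without non-targeting siRNA replicate 2, 3 splicing factors were lower, and without replicate 1, 3 ribosome biogenesis genes. Their medians were -0.02, 0.03, -0.06 and 0.0.

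Markers of other cell types were few and did not move together. Of 7 measured fibroblast and smooth muscle markers, 1 was higher and 2 lower, where 13.1% and 11.6% of all genes were. Lumican, LUM, measured 7.83, 8.01 and 8.18 against 9.34, 9.34 and 9.31 (1.32 ± 0.09), while ACTA2 and VIM differed by -0.36 ± 0.12 and -0.27 ± 0.07, calls lost with median scaling (0.127 and 0.221) and, for ACTA2, without each control array but non-targeting siRNA replicate 3, and for VIM without replicate 2 of either group. The ACTA2 call was also lost with the replicate number as a block (0.0626). Of 16 such markers on the array, 9 were detected on none of the 6 control arrays, among them COL1A2, COL3A1, PDGFRA and PDGFRB. Summed over the 16 markers, the normalised intensity was 1196 to 1231 with DMSO and 869.5 to 933.6 with the non-targeting siRNA, but without LUM 562.1 to 583.4 and 619.7 to 675.4, so LUM alone set the direction of the sum. LUM, ACTA2 and VIM were the 3 of them detected on all 6 arrays. Of 7 blood cell markers 2 were higher and 1 lower, of 3 endothelial markers 1 was higher, and of 4 basal epithelial markers 0 were called by limma, and 0 at an unadjusted p under 0.05. CD68, a lysosomal glycoprotein, fell by 0.81 ± 0.10 (-0.33 at a second probe), HBA2 rose by 0.80 ± 0.11 and endoglin, ENG, rose by 0.47 ± 0.13, the last lost (0.0512 to 0.0777) without non-targeting siRNA replicate 1 or DMSO replicate 1 or 3. The part of other cells in the results was not tested.

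The treated arrays of the series offer a comparison that shares no array with the controls, WP1130 against the mean of both ERG siRNAs. The treatments differ as well, so it is no replicate. In it 3199 genes (25.1%) were higher and 4915 (38.6%) lower with WP1130, 63.7% in all, and with median scaling 1562 were higher and 7969 lower. Of the 1481 genes lower with DMSO, 838 (56.6%) were also lower here, 17% of the genes lower here, and 357 (24.1%) were higher. Of the 1671 genes higher with DMSO, 616 (36.9%) were also higher here, 19.3% of the genes higher here, and 483 (28.9%) were lower. The mitotic lists had a median of -0.50 in this comparison, with 98 genes lower and 6 higher. Androgen-induced genes, with a median of 0.17 between the controls, had -0.44 between the treated groups. DDC differed by 2.02 and CEMIP by 2.01, while BBS4 differed by -0.20, CFAP69 by -1.19 and SLC45A3 by -1.51.

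A set of bright probes varied together across the 15 arrays with DMC1, a meiotic recombinase, and these genes were chosen after their values were seen. The brightest probes of 93 genes, DMC1 included, correlated with the DMC1 probe at r over 0.95. DMC1 differed by -1.19 between the controls, whose arrays were among the 15, so the choice fixed the direction of the set, and its values are a description. The 93 differed by -1.28 to -0.29 (median -0.93), they made up 6.28% of all lower calls, and 1388 lower genes were left without them. The group medians of the set, as differences from the non-targeting siRNA, were 0.05 with ERG siRNA 1, -0.05 with ERG siRNA 2 and 0.42 with WP1130. Genes of unrelated and tissue-restricted function stood in the set, such as NLRP8, the placental phosphatase ALPP and the cytokine IL10, and all 93 probes were detected on all 15 arrays. Of these genes, 49 had 71 other probes past the filter. Those other probes, which were not chosen by DMC1, had a median difference of 0.03 (-0.98 to 0.66). Of them, 6 were called lower and 3 higher, and 56 lay within 0.25 of 0. FKBP14, XRCC2 (-1.03 ± 0.14, other probe -0.24), ZMAT3 (-0.84 ± 0.13, other probes 0.12, lost with the mean of its probes at 0.158), the sulfotransferase SULT1A1 (-1.03 ± 0.12, other probes 0.09 and 0.28, likewise lost at 0.11) and the mitotic gene FAM83D (-1.09 ± 0.07) belong to this set. What these probes hybridise to was not analysed here, since probe sequences were not used. Of the mitotic lists only FAM83D was in the set, and without it 108 of 123 mitotic genes were lower. Without the set, 12 of 20 homologous recombination and repair genes were lower. The same held for 3 of 17 p53 targets and 5 of 28 drug and steroid metabolism genes.

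**Figure D5:**
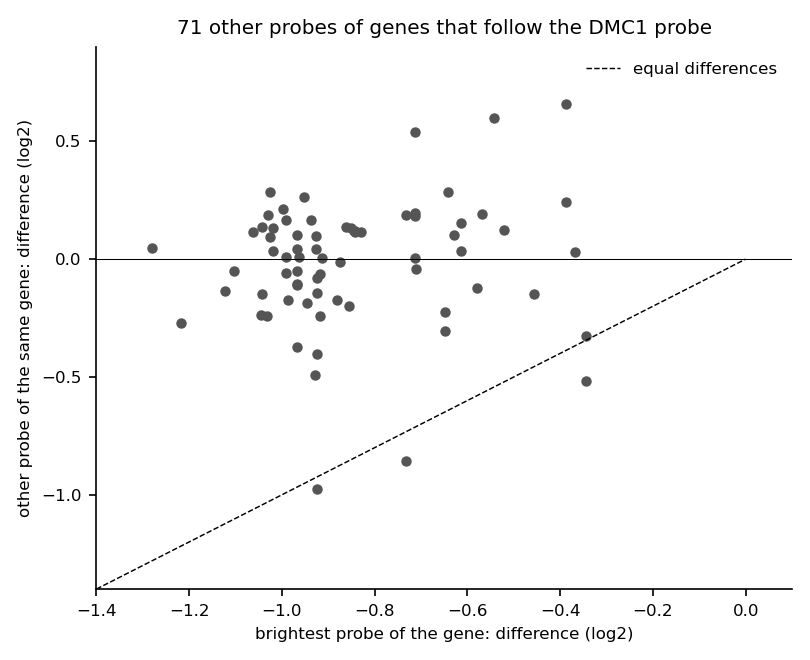
Difference between DMSO and non-targeting siRNA (log2) of the 71 other probes (vertical axis) of genes whose brightest probe followed DMC1, against the difference of that brightest probe (horizontal axis), 1 point per other probe, with a dashed line at equal differences. The choice by DMC1 places the brightest probes below 0, and 56 of the 71 other probes, not chosen that way, lie within 0.25 of 0.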

How the data were processed

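RNA of VCaP cells was hybridised to 15 Illumina HumanHT-12 v4 arrays, 3 in each of 5 groups, assigned by treatment label. Per the file headers, the main deposited table holds a linear intensity and a detection p-value for each of 47322 probes on each array. The authors' processed values are a second deposited table of intensities, used as an alternative. The submitters' processing notes name GenomeStudio; no source used here gives its settings or the slide positions.

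The function neqc of limma (3.58.1, R 4.3.3) corrected the background, with an offset of 16 and negative controls taken from the detection p-values, then quantile normalized the intensities and took log2. Probes with a detection p under 0.05 on at least 3 of 15 arrays were kept, 23281 in number, of which 17078 had 1 gene symbol in the platform annotation. The probe with the highest mean stood for each of 12744 genes. A 5-group limma model with 10 residual degrees of freedom was fitted and tested with eBayes, two-sided, adjusted over all genes. The number of arrays limits the precision. Named genes were the 15 largest rises and falls among called genes with non-overlapping arrays, ERG, TMPRSS2, KLK2 and KLK3, up to 4 members per direction of each of 51 lists, and the genes most like the top rise and fall. KLK3 did not pass the filter. The members, lists and comparisons were chosen with earlier results of these data known. Promoters came from RefSeq (GRCh38.p14), matched by symbol for 10132 tested genes. The fit was tested on simulated data. The 0 pairs of arrays with identical values and 0 unmapped columns were checked. Alternatives covered background correction, scaling, the authors' values, the filter, probe choice, the model, thresholds and leaving out each array. A slide block was not run.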

Additional observations from a re-analysis of the deposited data

How the results depend on the processing

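The count of 3152 genes between the control groups stayed within 1.5 times in 12 of 15 other settings. The exceptions were no scaling between arrays (1840 genes), an adjusted p under 0.01 (1817) and the test beyond 1.5-fold (105). The 12 include every probe on its own, which counts probes (3733) and not genes. They also include leaving out the 93 genes that follow DMC1, which could only lower the count by those genes. Without each control array in turn it was 2329 to 2614. For WP1130 against the ERG siRNAs, the count of 8114 moved to 1714 beyond 1.5-fold, and with no scaling between arrays its split was 1088 higher and 9607 lower. Same-numbered arrays did not deviate together (correlations of 0.052, 0.014 and -0.06), so the numbers were not taken to pair the arrays. With the replicate number as a block, 3131 genes were called, of which 2997 were shared with the fit without it, and 8104 for the treated comparison. The settings were compared for 146 of the named genes, of which 144 were called, so uncalled list members were mostly left out. Of these 144, 129 kept their call in every setting other than the 2 stricter thresholds, and 0 genes reversed. The median of 31 of 51 lists kept its sign in every setting, the 5 mitotic lists, luminal, androgen-induced, interferon and metallothionein lists among them, and the 20 that changed sign had medians of at most 0.219 in size. Leaving out the genes that follow DMC1, chosen after seeing the data, left 3059. Dim probes limit what can be seen: 50 lower genes were undetected on all DMSO arrays and 104 higher genes on all non-targeting arrays.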
